A study of Mus musculus with 21 samples.

Results

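The comparison of germ-free with specific-pathogen-free (SPF) mice on plain Milli-Q water rests on 6 of the 21 libraries of the series, taken by their labels: 3 from germ-free mice and 3 from SPF mice. Each library was bulk RNA-seq of Paneth cells sorted by FACS from the small intestine. All 6 sets of mice drank Milli-Q water for 7 weeks and none received zinc or antibiotics. The other groups of the series were SPF and germ-free mice on water with 200 mM zinc sulfate, and SPF mice on either water that received broad-spectrum antibiotics for the last 3 weeks. The study's methods give C57BL/6J as the strain of its sorted Paneth cell donors, whereas the labels give no strain, age or sex for the germ-free or the SPF mice. Germ-free mice lack microbes from birth and are kept in isolators, so the absence of microbes and the housing or breeding colony cannot be told apart in these samples. The series describes the samples as biological replicates.

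Paneth cells sit at the base of small intestinal crypts between the stem cells and fill their secretory granules with antimicrobial products, above all the alpha-defensins encoded by the Defa genes, lysozyme (Lyz1) and the lectin intelectin 1 (Itln1). This trade needs a large endoplasmic reticulum and a steady supply of amino acids, and in crypts the same cells also give Wnt and Notch ligands to their stem cell neighbours. Some epithelial antimicrobial genes, such as Reg3b and Reg3g, are known to be switched on by microbes, while defensins are made in the absence of microbes too.

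The 6 libraries held between 10754681 and 16051708 counts. The label was checked against 10 Paneth cell markers, which took 41.6, 39.7 and 43.4% of all counts in the germ-free libraries and 36.03, 28.5 and 31.03% in the SPF libraries. Enterocyte markers took at most 0.106% of a library, tuft cell markers at most 0.0371% and enteroendocrine markers at most 0.0310%. SPF replicate 2 stood apart. Its goblet cell markers took 0.996% of counts, against 0.333 to 0.423% in the other 5 libraries. It also held a set of genes that the others nearly lacked, among them Car1, a carbonic anhydrase abundant in colon epithelium, at 460.5 CPM against at most 0.0681 CPM. CPM values here were scaled to the library's effective size, which is its total multiplied by its TMM scaling factor. Germ-free replicate 2 differed from the other germ-free libraries in interferon-stimulated genes, described further on. For lists and genes whose calls depended on either library, values without it follow.

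The counts were distributed differently in the 2 groups. The 28 Defa genes together took 44.01, 44.5 and 42.8% of all counts in the germ-free libraries and 31.2, 24.1 and 33.5% in the SPF libraries. Every germ-free library therefore lay above every SPF library, with a difference between the means of 14.2 percentage points (43.8 ± 0.844% against 29.6 ± 4.90%, mean ± SD, n = 3 each). An exact two-sided permutation test gave p = 0.1, the smallest value that 3 libraries against 3 allow. Without SPF replicate 2, which had the lowest share, the difference was 11.4 points. Defa24, the most abundant of them, alone took 20.8, 20.6 and 20.9% against 15.6, 11.5 and 16.5%. Itln1 took 5.49, 5.25 and 5.51% in the germ-free and 3.82, 3.28 and 3.04% in the SPF libraries, again without overlap. The share of Lyz1 overlapped, with 13.1, 11.7 and 14.6% against 14.3, 11.8 and 9.33% (exact two-sided permutation p = 0.5).

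**Figure D1:**
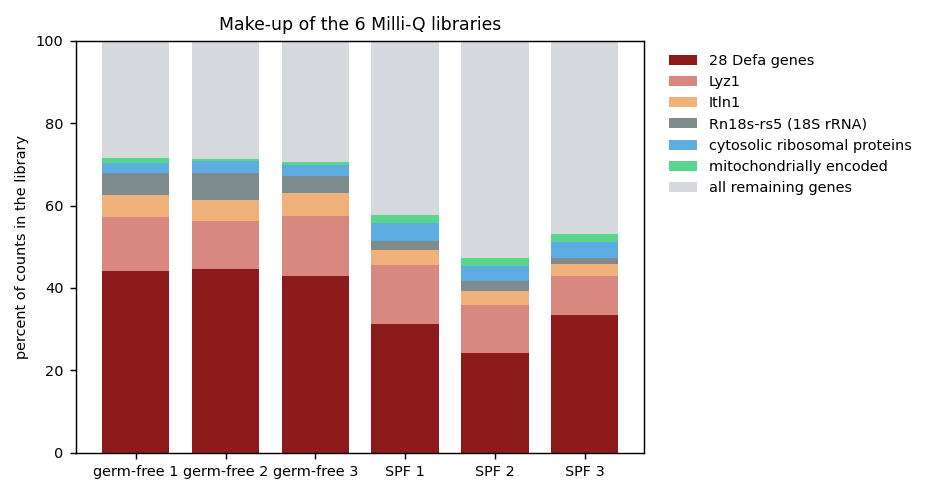
Stacked bars give the percent of each library's counts on the 28 Defa genes, Lyz1, Itln1, the 18S ribosomal RNA gene, cytosolic ribosomal protein genes, mitochondrially encoded genes and all remaining genes, for the 3 germ-free and the 3 SPF libraries on Milli-Q water. The Defa segment reaches 42.8 to 44.5% in the germ-free libraries and 24.1 to 33.5% in the SPF libraries.

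Because so few genes took so much of each library, the scale of every other gene depended on how libraries were made comparable. The 10 most abundant genes held 66.9 to 67.3% of counts in the germ-free libraries and 41.6 to 51.2% in the SPF libraries. TMM factors, which set the bulk of genes to no change, were 0.628 to 0.661 in the germ-free and 1.11 to 1.38 in the SPF libraries. Over all genes tested the median log2 fold change, germ-free over SPF, was -0.03 with TMM factors and -0.99 with library totals. All fold changes are therefore given with TMM factors, as changes relative to the bulk of genes. Values with library totals follow for the lists named below with more rises than falls, and for many of the genes whose call they end.

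**Figure D2:**
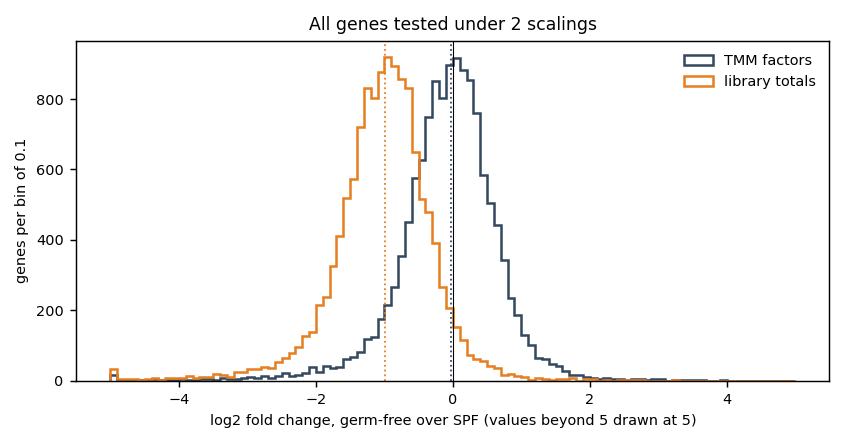
Histograms of the log2 fold change, germ-free over SPF on Milli-Q water, for the 13070 genes tested, with TMM factors and with library totals. Dotted lines mark the medians, -0.03 with TMM factors and -0.99 with library totals.

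Of 55414 genes in the table, 13070 had enough counts to be tested. With TMM factors, 1654 genes (12.7%) were higher and 1515 (11.6%) were lower in the germ-free libraries at an adjusted p below 0.05 (edgeR quasi-likelihood test, Benjamini-Hochberg adjustment), of which 370 and 556 changed at least 2-fold. With library totals, 74 genes (0.566%) were higher and 9264 (70.9%) were lower. The 74 were all among the 1654, and 272 of the 1654 were called lower instead. All 1515 lower genes were also called lower with library totals. That scale moved the bulk of genes down, to a median of -0.99, so it could hardly end these calls. Without SPF replicate 2, 1234 genes (9.44%) were higher and 1133 (8.67%) lower. Without germ-free replicate 2, 987 (7.55%) were higher and 669 (5.12%) lower, and without both, 817 (6.25%) and 454 (3.47%). The share of a list that was called is read against these shares. Higher and lower genes differed in their make-up: the median transcript length was 3156 bases among the higher, 5758 among the lower and 4180 among all genes tested, and the median GC content was 52.6%, 45.8% and 49.3%. With a correction for both, 1496 genes were called higher and 1031 lower. Of these 2527 calls 1903 were shared with those made without the correction. Among 127 named genes 21 lost their call under it, with Sct, Gfi1, Ascl2, Olfm4, Slc12a2, Npc1, Atp6v1a, Edem3, Slc39a10, Dclk1 and Oasl2 among them.

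Alpha-defensin genes were higher in the germ-free libraries. Of the 28 genes, 20 had enough counts to be tested and 18 of these rose, none fell, and the median log2 fold change was 1.47, against 12.7% of all genes higher. With library totals 12 rose and 1 fell, with a median of 0.53, and without SPF replicate 2 the counts were 17 and 0, and without both replicates 2 they were 16 and 0. Defa38 (ENSMUSG00000061958, GRCm39 chr8:21584982-21586111, minus strand) stood at 75314, 83607 and 78237 CPM in the germ-free libraries and 26791, 17132 and 22745 CPM in the SPF libraries, a log2 fold change of 1.83 (SE 0.23, adjusted p = 1.25e-05). Defa24 (ENSMUSG00000064213, GRCm39 chr8:22224506-22225490, plus strand) stood at 319918, 328267 and 316949 against 140537, 83577 and 127954 CPM, a log2 fold change of 1.46 (SE 0.25, adjusted p = 0.000308). For both genes every germ-free library exceeded every SPF library. The largest rise was that of Defa27, a rarer member at 9.07, 8.88 and 9.32 against 2.18, 1.79 and 2.56 CPM, a log2 fold change of 2.06 (SE 0.37, adjusted p = 0.000418). Defa34 and Defa41 did not pass the test, and 8 members had too few counts. The Defa genes are near-identical copies, and how reads that fit several of them were counted was not stated, so the values of single members are uncertain.

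Other granule products moved the same way with few exceptions. Of 13 tested, 11 (84.6%, against 12.7% of all genes) rose and 1 fell (median log2 fold change 1.39). The 11 include Nupr1, described further on, a chromatin protein that is also counted in the stress response list. With library totals the counts were 8 and 2, and without both replicates 2 they were 9 and 0. Pnliprp2, a lipase-related protein (ENSMUSG00000025091, GRCm39 chr19:58748118-58765966, plus strand), had 4698, 4741 and 4495 CPM in the germ-free and 1332, 1031 and 1122 CPM in the SPF libraries, a log2 fold change of 2.00 (SE 0.22, adjusted p = 5.23e-06). Its relative Pnliprp1 had 79.2, 82.01 and 76.4 against 20.03, 15.01 and 13.5 CPM, a log2 fold change of 2.29 (SE 0.25, adjusted p = 4.73e-06). Both stayed higher with library totals, by 1.05 and 1.35 on the log2 scale. Pla2g2a, a phospholipase that attacks bacterial membranes, rose without overlap of the groups by 1.65 on the log2 scale from 336, 259.5 and 410.0 to 975, 1256 and 915 CPM. Itln1 rose by 1.62 (SE 0.26, adjusted p = 0.00015) and by 0.68 with library totals (adjusted p = 0.000279). Lyz1 gave 201848, 185435 and 220688 against 128679.7, 85943 and 72400.4 CPM, a log2 fold change of 1.08 (SE 0.29, adjusted p = 0.00895), but with library totals the value was 0.15 (adjusted p = 0.409), which did not pass the test. Its rise was thus one relative to the bulk of genes and not in its share of the library, and it was lost without SPF replicate 3 (adjusted p = 0.06) and without both replicates 2 (adjusted p = 0.0632). Mmp7, the protease that activates mouse alpha-defensins, rose by 0.74 (adjusted p = 0.022). Its value was -0.20 with library totals, and its call was lost without germ-free replicate 2 or 3 or SPF replicate 2 or 3 (adjusted p = 0.0555 to 0.0993). Pglyrp1, a peptidoglycan-binding granule protein outside the lists, rose from 265, 241 and 249 to 864, 1108 and 911 CPM, a log2 fold change of 1.93 (SE 0.19, adjusted p = 1.36e-06). The called exception was Mptx2, a mucosal pentraxin of Paneth cells, with 2129.5, 2209.9 and 3111 CPM in the germ-free and 5321, 3557 and 4429.8 CPM in the SPF libraries, a log2 fold change of -0.84 (SE 0.30, adjusted p = 0.0464). Here all germ-free libraries lay below all SPF libraries. Its call was lost without germ-free replicate 1 or 2 or SPF replicate 1 or 3 (adjusted p = 0.0787 to 0.154). Its relative Mptx1 had a log2 fold change of -1.21 and did not pass (adjusted p = 0.0635).

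The Reg lectins split. Reg3b, a bactericidal C-type lectin (ENSMUSG00000071356, GRCm39 chr6:78347640-78350455, plus strand), stood at 4.79, 7.70 and 3.32 CPM in the germ-free libraries and 88.9, 103 and 119 CPM in the SPF libraries. This was 20.04-fold lower, a log2 fold change of -4.33 (SE 0.52, adjusted p = 9.95e-06), and the groups were far apart. Reg3g, which kills Gram-positive bacteria (ENSMUSG00000030017, GRCm39 chr6:78443246-78445859, minus strand), stood at 60.1, 68.8 and 41.3 against 414, 377 and 508 CPM, a log2 fold change of -2.93 (SE 0.40, adjusted p = 3.12e-05). Reg4 went the other way, at 5158, 5241 and 4452 against 1861, 2768 and 1243 CPM, a log2 fold change of 1.34 (SE 0.27, adjusted p = 0.00116), although its value with library totals was 0.36 (adjusted p = 0.156). The remaining lectins tested, Reg1 and Reg3a, did not pass. Of 14 tested genes known to be induced by microbes, 0 rose and 6 fell (median -0.88), against 11.6% of all genes lower. Without SPF replicate 2 the count of lower genes was 3, against 8.67% of all genes, and without both replicates 2 it was 2. The calls lost were those of Nfkbiz, Retnlb and Fut2, and the last 2, known from goblet and colon epithelial cells, were high in that library alone. Retnlb had 0.409, 97.9 and 1.21 CPM in the SPF and 0.907, 0.740 and 0.214 CPM in the germ-free libraries, and Fut2 had 1.70, 59.5 and 2.47 against 1.55, 1.63 and 1.71 CPM.

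**Figure D3:**
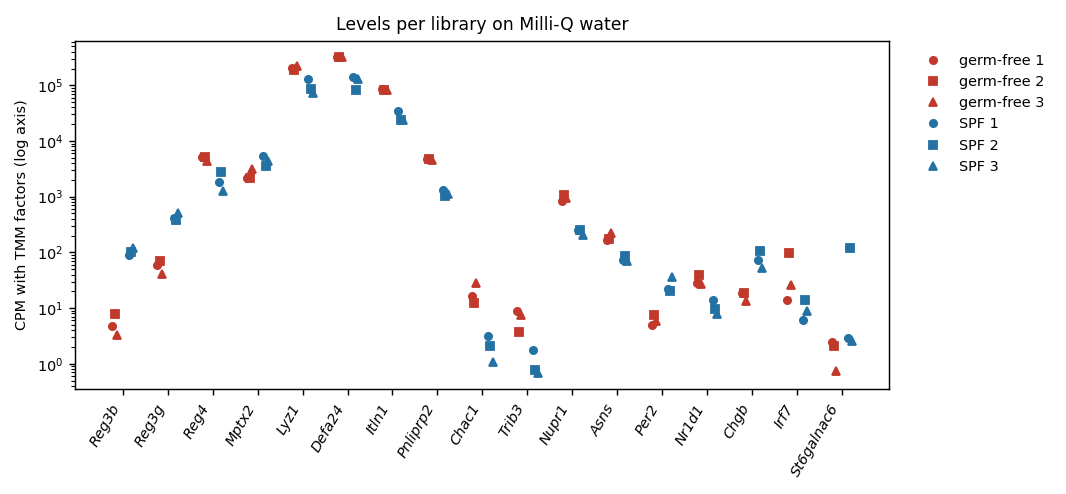
Each point is the level of a gene in 1 library, in CPM with TMM factors on a log axis, for 3 germ-free (red) and 3 SPF (blue) libraries on Milli-Q water. Reg3b and Reg3g are separated by group by about an order of magnitude, Defa24 and Pnliprp2 are separated in the other direction, and St6galnac6 is high in SPF replicate 2 alone.

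Genes of the integrated stress response, the program by which the transcription factor Atf4 raises amino acid supply when translation is curbed, were higher in the germ-free libraries. Of 28 tested, 14 rose (50%, against 12.7% of all genes) and 1 fell, with a median log2 fold change of 0.66. With library totals 5 were higher (17.9%, against 0.566%) and 8 lower (28.6%, against 70.9%), with a median of -0.30, so the direction of the list as a whole turned with the scale. The lone fall, Stc2, rested on SPF replicate 2, where it had 8.27 CPM against at most 0.435 CPM elsewhere. Without that library 12 rose and 0 fell, and without both replicates 2 the counts were the same (42.9%, against 6.25% of all genes). Chac1, which degrades glutathione (ENSMUSG00000027313, GRCm39 chr2:119180757-119184866, plus strand), showed the largest rise of all named genes, with 16.5, 12.6 and 28.5 CPM in the germ-free and 3.13, 2.04 and 1.06 CPM in the SPF libraries. This was 9.41-fold higher, a log2 fold change of 3.23 (SE 0.66, adjusted p = 0.00138), and 2.30 with library totals. Trib3, a pseudokinase that damps the response, had 8.94, 3.70 and 7.39 against 1.77, 0.766 and 0.677 CPM, a log2 fold change of 2.67 (SE 0.48, adjusted p = 0.000463). Nupr1, a small stress-induced chromatin protein, had 844, 1072 and 928 against 253, 250.2 and 204 CPM, a log2 fold change of 2.01 (SE 0.24, adjusted p = 9.95e-06). In all of these genes the lowest germ-free library lay above the highest SPF library. Eif4ebp1, an inhibitor of cap-dependent translation, rose from 25.7, 21.2 and 19.1 to 81.6, 68.98 and 70.4 CPM, a log2 fold change of 1.75 (SE 0.22, adjusted p = 1.62e-05). Asns, which makes asparagine, had 169, 171 and 219.5 against 72.2, 84.8 and 70.2 CPM, a log2 fold change of 1.30 (SE 0.17, adjusted p = 1.62e-05). For both genes too the groups were apart, but with library totals Asns had 0.34 and did not pass (adjusted p = 0.0848). Atf4 itself had 360.3, 386 and 353 against 203, 174 and 188 CPM, a log2 fold change of 0.96 (SE 0.16, adjusted p = 0.000282), and a value of 0.01 with library totals. Ddit3, the stress factor CHOP, had 7.39, 9.03 and 7.39 against 5.79, 5.05 and 4.45 CPM and did not pass (adjusted p = 0.212).

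The promoters of 4 of these genes are shown because the response is known to act through composite sites that Atf4 and C/EBP factors share. They are RefSeq sequences on GRCm38.p6, from 250 bases before to 50 bases after the start, at chr2:119350992-119351291 on the plus strand, chr2:152344011-152344310 on the minus strand, chr7:126625421-126625720 on the minus strand and chr6:7693160-7693459 on the minus strand. Capitals mark the single match to TGATGNAA in each, searched on both strands. Counted from 1 at the 5′ end, the match begins at base 58 in Chac1, 265 in Trib3, 141 in Nupr1 and 228 in Asns, and the first 3 read on the opposite strand.
Chac1: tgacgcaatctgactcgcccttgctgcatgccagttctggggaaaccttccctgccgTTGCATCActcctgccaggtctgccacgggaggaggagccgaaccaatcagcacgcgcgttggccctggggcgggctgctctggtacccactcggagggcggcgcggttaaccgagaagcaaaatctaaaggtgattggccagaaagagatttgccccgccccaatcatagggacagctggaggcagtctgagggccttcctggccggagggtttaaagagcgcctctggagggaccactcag
Trib3: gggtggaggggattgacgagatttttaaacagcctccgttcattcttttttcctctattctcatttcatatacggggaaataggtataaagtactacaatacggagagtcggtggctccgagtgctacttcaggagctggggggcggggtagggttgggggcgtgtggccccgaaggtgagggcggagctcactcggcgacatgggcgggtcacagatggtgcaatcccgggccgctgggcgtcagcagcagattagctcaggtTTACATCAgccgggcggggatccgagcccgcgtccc
Nupr1: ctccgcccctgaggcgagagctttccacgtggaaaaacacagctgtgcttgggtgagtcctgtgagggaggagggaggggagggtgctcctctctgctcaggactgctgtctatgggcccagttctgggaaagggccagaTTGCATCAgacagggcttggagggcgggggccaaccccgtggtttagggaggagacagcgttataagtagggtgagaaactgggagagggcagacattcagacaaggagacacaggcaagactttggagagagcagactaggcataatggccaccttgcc
Asns: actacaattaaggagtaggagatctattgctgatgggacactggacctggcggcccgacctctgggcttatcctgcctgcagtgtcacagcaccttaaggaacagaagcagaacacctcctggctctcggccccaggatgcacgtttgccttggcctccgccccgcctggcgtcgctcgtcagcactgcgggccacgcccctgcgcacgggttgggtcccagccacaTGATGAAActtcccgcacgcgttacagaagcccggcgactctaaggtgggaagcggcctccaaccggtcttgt
These letters occurred in 7 of the 25 tested members of the list that had a promoter in the RefSeq table (28%), in 5 of the 12 among these that were higher in the germ-free libraries (41.7%), and in 1096 of all 27025 promoters (4.06%). Among all genes tested 9875 had a promoter in the table and 207 of these held the letters (2.1%), and among genes higher in the germ-free libraries 38 of 1307 did (2.91%). Of 6 tested tRNA synthetase genes with a promoter in the table, 0 held them. A match is a description of the sequence, and binding was not measured.

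Aminoacyl-tRNA synthetases, which load tRNAs with amino acids and include targets of Atf4, were also higher. Of 23 tested, 14 rose (60.9%, against 12.7% of all genes) and 0 fell (median 0.51), and 12 rose and 0 fell without both replicates 2. With library totals 0 rose and 12 fell (52.2%, against 70.9% of all genes, median -0.47). Cars1, for cysteine, had 69.2, 73.9 and 69.9 CPM in the germ-free and 24.4, 26.2 and 29.2 CPM in the SPF libraries, a log2 fold change of 1.42 (SE 0.22, adjusted p = 0.000144). Aars1, for alanine, had 118, 124 and 132 against 50.4, 73.9 and 61.7 CPM, a log2 fold change of 1.01 (SE 0.15, adjusted p = 0.000119). Both sets were free of overlap, and with library totals neither passed (0.45, adjusted p = 0.134, and 0.03, adjusted p = 0.908). Among 22 amino acid transporters 5 rose (22.7%, against 12.7% of all genes) and 0 fell. Library totals gave 0 higher and 12 lower (54.5%, against 70.9%). The largest rise was that of Slc3a2, the shared heavy chain of several transporters, with a log2 fold change of 1.14 (SE 0.19, adjusted p = 0.000255). Slc3a2 too did not pass with library totals (0.18, adjusted p = 0.443).

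Of the wider protein-making machinery some lists had more rises than the 12.7% of all genes, but several of these shares depended on the libraries that stood apart. Among 77 cytosolic ribosomal protein genes 26 rose (33.8%) and 0 fell (median 0.35). Without SPF replicate 2, 14 rose (18.2%, against 9.44%) and 1 fell, and without both replicates 2, 8 rose (10.4%, against 6.25%). On zinc water 28 rose (36.4%, against 3.47%) and 0 fell. Of 50 genes of the translocon, glycosylation and vesicle coats 14 rose (28%) and 1, Sec24d, fell (median 0.13). Leaving out both replicates 2 gave 12 higher (24%, against 6.25%) and 0 lower. The call of Sec24d was lost without germ-free replicate 2 (adjusted p = 0.0606). The unfolded protein response and the disposal of misfolded proteins, known to be active in secretory cells, had 6 of 35 higher (17.1%) and 2 lower (median 0.17). The rises numbered 5 without SPF replicate 2 (14.3%, against 9.44%) and 4 without germ-free replicate 2 (11.4%, against 7.55%). They numbered 6 without both (17.1%, against 6.25%). The 2 lower genes were Agr2 and Edem3, and neither passed without SPF replicate 2, where Agr2 stood at 3057 CPM against 1205 and 973 CPM in the other SPF libraries. Proteasome subunits had 11 of 36 higher (30.6%) and 0 lower. The number higher was 4 without germ-free replicate 2 (11.1%, against 7.55%) and 5 without SPF replicate 2 (13.9%, against 9.44%). It was 2 without both (5.56%, against 6.25%). Mitochondrial ribosomal proteins had 13 of 77 higher (16.9%) and 0 lower, but 7, 8 and 2 higher in the same order. These were 9.09%, 10.4% and 2.6%, against 7.55%, 9.44% and 6.25% of all genes. Nuclear genes of oxidative phosphorylation were near the share of all genes, with 11 of 76 higher (14.5%) and 3 without both (3.95%). Ndufs1 and Sdhd were lower there, and both calls were lost without SPF replicate 2 (adjusted p = 0.0504 and 0.103). With library totals 0 members of these lists were higher, against 0.566% of all genes, and 53 of the 77 cytosolic ribosomal protein genes were lower (68.8%, against 70.9%).

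Lysosomal and autophagy genes, which serve the turnover of granules and organelles, were also higher with TMM factors. Among 40 genes of the vacuolar ATPase and lysosome 15 rose (37.5%, against 12.7% of all genes) and 2, Npc1 and Atp6v1a, fell (median 0.31). Without both replicates 2, 14 rose (35%, against 6.25%) and 0 fell, and with library totals 0 rose and 30 fell (75%, against 70.9%). The cathepsin gene Ctsd had 119.6, 121 and 109 CPM in the germ-free and 59.3, 62.1 and 51.1 CPM in the SPF libraries, a log2 fold change of 1.02 (SE 0.14, adjusted p = 3.56e-05). Of 38 autophagy genes 11 rose (28.9%) and 1, Atg9a, fell (median 0.14). Without SPF replicate 2, and without both replicates 2, 6 rose (15.8%, against 9.44% and 6.25%) and 0 fell. Library totals gave 0 higher and 24 lower (63.2%, against 70.9%). Map1lc3a, a coat protein of autophagosomes, had 19.6, 19.98 and 18.5 against 6.06, 8.07 and 4.88 CPM, a log2 fold change of 1.61 (SE 0.27, adjusted p = 0.000268). Ccpg1, a receptor for the autophagy of endoplasmic reticulum, had 23.6, 25.2 and 13.8 against 5.31, 4.49 and 4.01 CPM, a log2 fold change of 2.18 (SE 0.34, adjusted p = 0.00015). For all of these named rises every germ-free library lay above every SPF library, as was the case for 2518 of all 13070 genes. With library totals Ccpg1 remained higher (1.22, adjusted p = 0.00407), whereas Ctsd (0.06) and Map1lc3a (0.64, adjusted p = 0.0607) did not pass.

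Clock genes differed in both directions. Of 19 tested, 2 rose and 7 fell (36.8%, against 11.6% of all genes), and without both replicates 2 the counts were 1 and 4 (21.1%, against 3.47%). Per2, a repressor within the clock, had 4.92, 7.40 and 5.89 CPM in the germ-free and 21.7, 20.6 and 36.2 CPM in the SPF libraries, a log2 fold change of -2.12 (SE 0.31, adjusted p = 7.15e-05). Cry1 and Cry2, its partners, fell by 1.26 and 1.20 on the log2 scale, and Cry1 did not pass without both replicates 2 (adjusted p = 0.0606). The rises were those of Nr1d1, the nuclear receptor Rev-erb alpha that represses the opposite arm of the clock, with 27.99, 39.1 and 26.99 against 14.2, 9.45 and 7.98 CPM (1.58, SE 0.36, adjusted p = 0.00303), and of the clock repressor Ciart, with 2.98, 2.22 and 3.32 against 0.886, 0.919 and 0.338 CPM (2.00, SE 0.53, adjusted p = 0.00923). With library totals neither rise passed the test (adjusted p = 0.098 for Nr1d1 and 0.0959 for Ciart). The call of Nr1d1 was also lost without both replicates 2 (adjusted p = 0.0583) and that of Ciart without SPF replicate 3 (adjusted p = 0.0524). The hour at which mice were killed is not given in the labels, so the time of day and the group cannot be told apart. Nr1d1 overlaps a gene on the opposite strand, and the use of strand in counting was not stated.

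Cell cycle genes were lower in the germ-free libraries, with 0 of 30 higher and 13 lower (43.3%, against 11.6% of all genes, median -0.47). Kif11, a motor of the mitotic spindle, had 19.3, 16.3 and 21.6 CPM in the germ-free and 40.7, 30.3 and 39.6 CPM in the SPF libraries, a log2 fold change of -0.95 (SE 0.16, adjusted p = 0.000267). Bub1, a kinase of the spindle checkpoint, had 3.11, 6.37 and 8.03 against 18.7, 10.6 and 13.1 CPM, a log2 fold change of -1.26 (SE 0.29, adjusted p = 0.0034). Cell cycle genes called lower numbered 15 without SPF replicate 2 (50%, against 8.67%). They numbered 5 without germ-free replicate 2 (16.7%, against 5.12%) and 10 without both (33.3%, against 3.47%). The counts for zinc water, from other libraries, were 0 higher and 6 lower (20%, against 2.38%). Crypt stem cell genes had 3 of 15 lower (20%, against 11.6% of all genes), Slc12a2, Olfm4 and Prom1. Only Ascl2 was higher (6.67%, against 12.7%). Without germ-free replicate 2, and without both replicates 2, 0 stem cell genes were called in either direction. Without SPF replicate 2, 6 were lower (40%, against 8.67%) and 0 higher. Among immediate early genes 1 of 26 rose, Jund, and 7 fell (26.9%, against 11.6% of all genes). Without germ-free replicate 2, 3 fell (11.5%, against 5.12%), and without both, 4 fell (15.4%, against 3.47%). Jund did not pass with library totals (0.13, adjusted p = 0.659). Fosb fell, at 30.8, 16.1 and 6.43 against 68.96, 37.9 and 45.8 CPM, and its call was lost without germ-free replicate 2 or 3 or SPF replicate 1 or 3 (adjusted p = 0.0528 to 0.176). Cholesterol synthesis had 0 of 25 higher and 9 lower (36%, against 11.6% of all genes, median -0.43). Without SPF replicate 2, 2 were lower (8%, against 8.67%). Leaving out germ-free replicate 2 gave 2 (8%, against 5.12%) and leaving out both gave 1 (4%, against 3.47%). Idi1, an isomerase of the pathway, fell with and without these libraries. It went from 6.34, 4.08 and 3.38 CPM in the SPF to 1.55, 1.18 and 0.535 CPM in the germ-free libraries, a log2 fold change of -2.09 (SE 0.44, adjusted p = 0.0018). Its value on zinc water was -0.07 (adjusted p = 0.935), and 0 of the 25 genes were called there, against 2.38% of all genes lower.

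Markers of enteroendocrine cells, the hormone-making cells of the same epithelium, were sparse and lower in the germ-free libraries. Of 12 tested, 1 rose and 6 fell (50%, against 11.6% of all genes, median -1.72). Without SPF replicate 2 the counts were 1 and 4 (33.3% lower, against 8.67%). Without both replicates 2 they were 0 and 3 (25% lower, against 3.47%). Chgb, a protein of hormone granules, had 18.8, 18.5 and 13.4 CPM in the germ-free and 74.00, 108 and 52.7 CPM in the SPF libraries, a log2 fold change of -2.22 (SE 0.41, adjusted p = 0.00063). Gcg, which encodes glucagon-like peptides, had 6.22, 2.81 and 1.61 against 19.6, 12.5 and 9.82 CPM, a log2 fold change of -1.99 (SE 0.54, adjusted p = 0.00996), and its call was lost without germ-free replicate 2 or 3 (adjusted p = 0.0527 to 0.0645). Neurod1 and Insm1, factors of the enteroendocrine lineage, fell by 2.63 and 2.73 on the log2 scale from about 1 CPM, with the call of Neurod1 lost without germ-free replicate 2 or 3 or SPF replicate 3 (adjusted p = 0.0515 to 0.112). Sct, the gene for secretin, was the exception with 31.5, 45.1 and 32.4 against 20.03, 20.9 and 17.5 CPM, a log2 fold change of 0.90 (SE 0.21, adjusted p = 0.00406), and its sign turned with library totals (-0.07). It did not pass without both replicates 2 (adjusted p = 0.0568). The 12 markers summed to 0.00456, 0.00592 and 0.00415% of counts in the germ-free and 0.0176, 0.0310 and 0.0166% in the SPF libraries. Of 9 tuft cell markers 0 rose and 2, Trpm5 and Dclk1, fell (22.2%, against 11.6% of all genes). Both calls were lost without germ-free replicate 2. The summed share of the tuft cell markers was 0.0101 to 0.0107% against 0.0236 to 0.0371%. The summed shares of both cell types are of library totals, on which the median log2 fold change over all genes was -0.99. With TMM factors the median of the tuft cell markers was -0.42. In these bulk libraries fewer cells of a type and less RNA per cell cannot be told apart. Immune markers summed to at most 0.00133% and stromal markers to at most 0.000272% of a library.

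Factors that build the secretory lineages moved in both directions. Of 32 tested, 6 were higher and 6 lower (18.8% each, against 12.7% and 11.6% of all genes). The counts were 8 and 6 without SPF replicate 2 (25% and 18.8%, against 9.44% and 8.67%). They were 4 and 2 without germ-free replicate 2 (12.5% and 6.25%, against 7.55% and 5.12%). Leaving out both gave 8 and 2 (25% and 6.25%, against 6.25% and 3.47%). Library totals gave 0 higher and 25 lower (78.1%, against 70.9%). Bhlha15, the factor Mist1 that shapes secretory cells, had 247, 258 and 260.2 CPM in the germ-free and 129.9, 107 and 127 CPM in the SPF libraries, a log2 fold change of 1.07 (SE 0.15, adjusted p = 4.97e-05). Foxa3 had 116, 106 and 103 against 56.4, 48.3 and 46.1 CPM, a log2 fold change of 1.11 (SE 0.18, adjusted p = 0.000189), and Gfi1, needed for Paneth and goblet cells, rose by 0.63 (adjusted p = 0.0371), a call lost without germ-free replicate 2 or 3 or SPF replicate 1 or 3 (adjusted p = 0.0755 to 0.135). Among the falls were Hnf4g, a nuclear receptor of the epithelium, with 9.33, 5.92 and 6.96 against 20.4, 13.6 and 13.6 CPM, a log2 fold change of -1.09 (SE 0.28, adjusted p = 0.00627), and the receptor Notch2, with 9.20, 5.33 and 6.85 against 13.1, 9.04 and 14.7 CPM, a log2 fold change of -0.78 (SE 0.26, adjusted p = 0.0321). The call of Notch2 was lost without germ-free replicate 2 or 3 or SPF replicate 1 or 3 (adjusted p = 0.0693 to 0.156). The ligands by which Paneth cells support stem cells had 2 of 11 higher (18.2%, against 12.7% of all genes) and 0 lower. These were Wnt3, with 133, 151 and 147 against 65.96, 56.4 and 68.3 CPM (1.18, SE 0.16, adjusted p = 3.53e-05), and Bmp7, with 56.8, 57.4 and 54.9 against 27.9, 28.5 and 32.1 CPM (0.93, SE 0.13, adjusted p = 5.51e-05). Of the 11 ligands 0 were higher and 7 lower with library totals (63.6%, against 70.9% of all genes). With library totals the values were 0.12 for Bhlha15, 0.16 for Foxa3, -0.34 for Gfi1, 0.22 for Wnt3 and -0.03 for Bmp7, and none of these passed the test.

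Zinc-handling genes were examined because Paneth cells store zinc in their granules. Of 24 tested, 4 rose (16.7%, against 12.7% of all genes) and 1 fell (4.17%, against 11.6%), so the list as a whole was near the shares of all genes. Library totals gave 0 higher and 17 lower (70.8%, against 70.9%). The metallothioneins, which bind zinc, had uneven levels among the germ-free libraries, with Mt1 at 68.7, 129 and 101 against 48.9, 30.7 and 31.8 CPM (1.43, SE 0.33, adjusted p = 0.00384) and Mt2 at 13.9, 52.7 and 31.4 against 9.47, 11.4 and 4.55 CPM (1.94, SE 0.44, adjusted p = 0.00305). The highest value of both was in germ-free replicate 2, and the groups did not overlap for either gene. With library totals neither passed (adjusted p = 0.231 for Mt1 and 0.0646 for Mt2), and without both replicates 2 Mt1 did not pass (adjusted p = 0.0916). The other changes were rises of the transporters Slc30a2 and Slc39a13 and a fall of Slc39a10, a call lost without germ-free replicate 2 or 3 (adjusted p = 0.0786 to 0.0954).

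Interferon-stimulated genes were uneven among the germ-free libraries. Of 32 tested, 10 rose (31.2%, against 12.7% of all genes) and 0 fell (median 1.45). Without germ-free replicate 2, 2 were higher (6.25%, against 7.55%), and without both replicates 2, 1 was (3.12%, against 6.25%). Irf7, a master regulator of these genes, had 13.99, 99.03 and 26.02 CPM in the germ-free and 6.20, 13.99 and 8.99 CPM in the SPF libraries, a log2 fold change of 2.23 (SE 0.65, adjusted p = 0.0162). Germ-free replicate 2 held the top value, germ-free replicate 1 was level with SPF replicate 2, and the call was lost without germ-free replicate 2 or SPF replicate 1 (adjusted p = 0.0658 to 0.284) and with library totals (adjusted p = 0.0977). Oasl2 had 3.11, 41.2 and 14.4 against 2.79, 5.36 and 3.24 CPM and Isg15 1.17, 6.81 and 2.57 against 0.273, 0.613 and 0.338 CPM, again highest in germ-free replicate 2. Germ-free replicate 3 also lay above all SPF libraries for Irf7, Oasl2 and Isg15. The call of Oasl2 was lost without germ-free replicate 2 or 3 or SPF replicate 1, 2 or 3 (adjusted p = 0.0604 to 0.381), and that of Isg15 without germ-free replicate 2 or SPF replicate 1 or 3 (adjusted p = 0.0635 to 0.154). With library totals 0 of the list rose and 2 fell (6.25%, against 70.9% of all genes). The median of the list was then 0.48, against -0.99 over all genes. On zinc water 2 of the list rose (6.25%, against 3.47%) and 0 fell, with a median of 1.06, and Irf7 had 1.75 (adjusted p = 0.0941). MHC class II presentation genes, known to respond to interferon gamma, had 0 of 7 called in either direction.

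**Figure D4:**
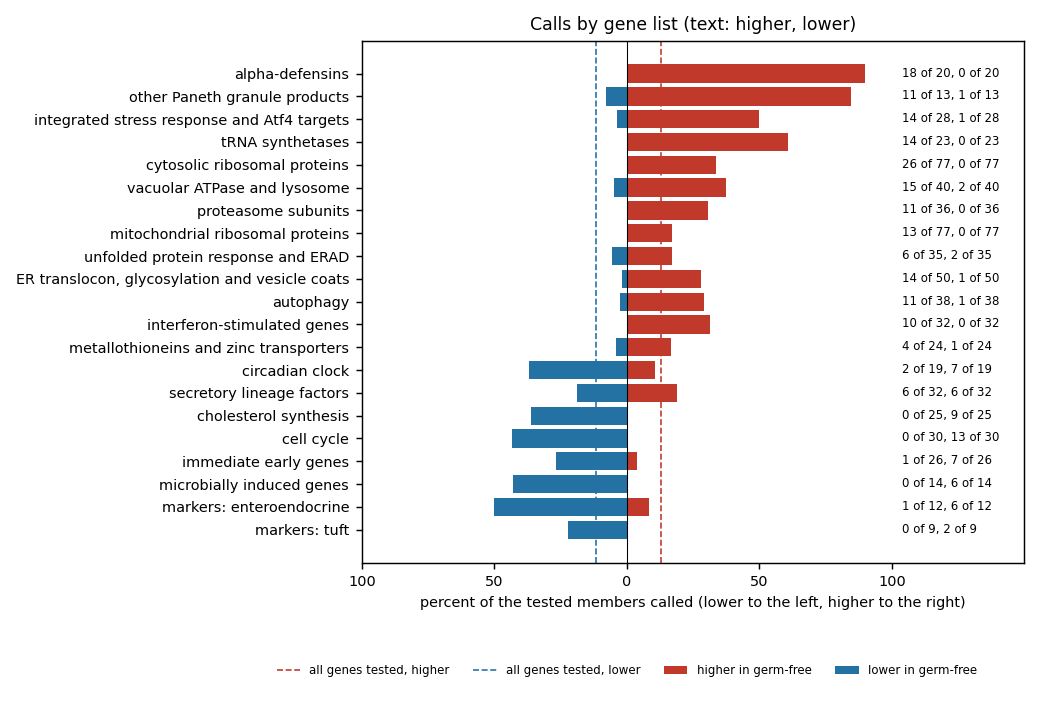
Bars give the percent of each list's tested members called higher (to the right) or lower (to the left) in the germ-free libraries with TMM factors, and the text at the right gives the counts. Dashed lines mark the same shares over all 13070 genes, 12.7% higher and 11.6% lower.

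Among the largest rises by fold were counts from genes that resemble ribosomal RNA. The 18S ribosomal RNA gene took 5.25, 6.57 and 4.28% of counts in the germ-free and 2.11, 2.51 and 1.44% in the SPF libraries. Mir6236 and Gm15564, annotated genes that match ribosomal RNA, stood at 4262, 7194 and 4053 against 653, 757 and 513 CPM and 756, 1019 and 639 against 101, 132 and 74.1 CPM. Lars2, a mitochondrial leucyl-tRNA synthetase gene listed among the largest rises, had 5959.9, 8473 and 5355 against 903, 1013 and 662 CPM, a log2 fold change of 2.94 (SE 0.39, adjusted p = 2.48e-05). Its order of libraries was the same as that of Mir6236 and Gm15564, and whether its counts came from its own transcript was not tested. The share of counts on mitochondrially encoded genes was 1.21, 0.599 and 0.716% in the germ-free and 1.89, 2.16 and 1.97% in the SPF libraries. With TMM factors 1 of 7 tested protein-coding members, mt-Nd5, was lower (14.3%, against 11.6% of all genes) and 0 were higher (median -0.315). Without germ-free replicate 2, and without both replicates 2, 0 of them were called. Other genes among the largest rises were Cyp2b10, a drug-metabolising enzyme, with 11.4, 14.8 and 20.6 against 2.66, 3.42 and 2.27 CPM, a log2 fold change of 2.49 (SE 0.30, adjusted p = 9.95e-06), and the somatostatin receptor Sstr3, with 16.3, 15.99 and 12.4 against 3.61, 3.32 and 4.59 CPM, a log2 fold change of 1.95 (SE 0.25, adjusted p = 2.28e-05).

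Several of the largest falls rested on SPF replicate 2. St6galnac6, a sialyltransferase, had 2.93, 118 and 2.61 CPM in the SPF and 2.46, 2.07 and 0.750 CPM in the germ-free libraries. Its log2 fold change was -4.58 with that library and -0.71 without it (adjusted p = 0.377). Gsdmc4, a gasdermin, had 2.38, 33.5 and 1.79 against 0.389, 0.888 and 0.535 CPM, and its adjusted p without that library was 0.147. B3gnt6, which builds mucin glycans, turned from -2.49 to 0.57. Of the 556 genes lower by at least 2-fold, 185 were no longer called lower without SPF replicate 2. Dmbt1, a secreted scavenger receptor that binds bacteria, was highest there too, at 197, 762 and 212 CPM in the SPF and 45.2, 99.2 and 71.8 CPM in the germ-free libraries, but it remained lower without it (-1.54, adjusted p = 0.00233). Nox1, an epithelial NADPH oxidase, fell with (-2.10) and without it (-1.99, adjusted p = 0.0324), from 11.3, 16.3 and 13.5 to 3.89, 1.48 and 4.07 CPM. Its call was lost without germ-free replicate 2 (adjusted p = 0.0784), and on zinc water its value had the opposite sign (2.10, adjusted p = 0.0984).

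The same contrast on zinc water used 4 germ-free and 3 SPF libraries, none of them shared with the Milli-Q comparison. There 453 genes (3.47%) were higher and 311 (2.38%) lower in the germ-free libraries, and with library totals 32 (0.245%) were higher and 6278 (48%) lower. Of the 1654 genes higher on Milli-Q water, 1540 (93.1%) had the same sign on zinc water and 350 were also called higher, which is 21.2% of the Milli-Q calls and 77.3% of the zinc calls. Of the 1515 lower genes, 1258 (83%) had the same sign and 165 were also called lower, 10.9% of the Milli-Q and 53.1% of the zinc calls. The share with the same sign over all genes tested was not computed. Reg3b had a log2 fold change of -2.80 on zinc water (adjusted p = 0.00171), Reg3g of -1.33 (adjusted p = 0.0241) and Per2 of -2.09 (adjusted p = 0.00087). Defa38 rose by 1.00 (adjusted p = 0.00884) and Pnliprp2 by 1.05 (adjusted p = 0.00675) on zinc water. Chac1 had 1.86 there and did not pass (adjusted p = 0.0709), and Cars1 had 0.17 (adjusted p = 0.671). The difference of the germ-free effect between the waters was itself tested, and 0 genes (0%) passed with edgeR at an adjusted p below 0.05, while 1740 had an unadjusted p below 0.05. DESeq2 called 37 genes, and edgeR with no filter on low counts called 429. Without germ-free zinc replicate 4 edgeR called 767. The absence of calls thus depended on the method and on the libraries used, and the cause was not tested. The count for zinc water fell to 51 without SPF zinc replicate 2 and to 168 without SPF zinc replicate 3, and it was 370 and 402 without germ-free zinc replicates 1 and 2 and 1573 without replicate 4.

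**Figure D5:**
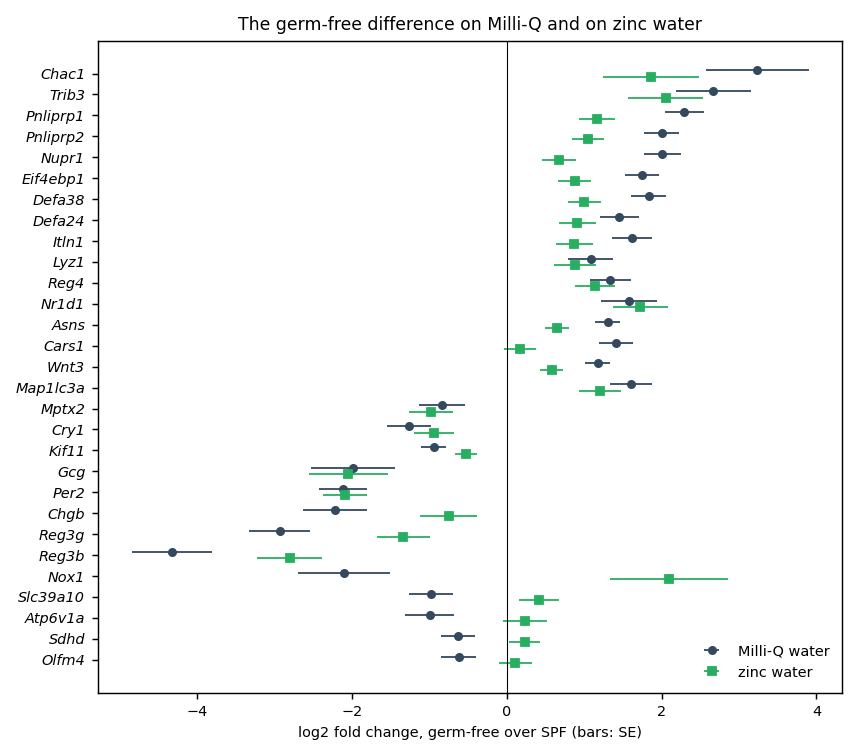
Points give the log2 fold change, germ-free over SPF, with TMM factors on Milli-Q water (circles) and on zinc water (squares) for 29 genes named in the text, and bars give 1 standard error. The sign is the same on both waters for 24 of them and opposite for 5, Nox1, Slc39a10, Atp6v1a, Sdhd and Olfm4, and the values for Reg3b, Reg3g and Chgb are nearer to 0 on zinc water.

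Antibiotic-treated SPF mice on Milli-Q water offered a further comparison group with a depleted microbiota, although it shares the 3 germ-free libraries. Against these 4 libraries 1636 genes (12.5%) were higher and 1268 (9.7%) lower in the germ-free libraries, and with library totals 66 (0.505%) were higher and 10274 (78.6%) lower. The Defa genes took a mean of 29.2 ± 3.70% (SD, n = 4) of counts in the antibiotic group. Reg3b differed by 0.96 between germ-free and antibiotic-treated mice (adjusted p = 0.204), Reg3g by 1.60 (adjusted p = 0.00278) and Chac1 by 3.75 (adjusted p = 0.000195). With library totals the values were -0.08 for Reg3b (adjusted p = 0.879) and 0.56 for Reg3g (adjusted p = 0.102).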

How the data were processed

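Paneth cells were sorted by FACS, and per the labels total RNA was column-purified and made into stranded mRNA libraries. The authors deposited 1 table of raw counts per Ensembl gene for 21 libraries, with no normalization. The submitters' processing notes name FastQC 0.12.0, STAR 2.7.0a, DESeq2 and the mm39 build. Which program counted reads, whether by strand, and how it treated reads that fit several genes is not given in the sources consulted. Groups came from the labels, and columns were matched by name (0 left unmatched). Of 55414 identifiers 54749 matched GENCODE M39 on GRCm39, and the rest held 0.0164% of counts.

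All 21 libraries in 6 groups entered 1 fit in edgeR 4.0.16 (R 4.3.3, limma 3.58.1) with TMM factors, the genes kept by filterByExpr (13070) and quasi-likelihood F-tests. Benjamini-Hochberg adjustment was made within each comparison (threshold 0.05). The common dispersion was 0.0369 with 8.52 prior degrees of freedom. Shares of counts were compared by exact permutation. Fits were tested on simulated data. DESeq2 1.42.0, limma-voom, library totals, other filters, leaving out libraries and a correction for GC content and length were alternatives. Leave-out counts cover genes also tested in the full fit.

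Named genes were the 10 largest rises and falls (protein-coding, mean of at least 5 CPM, groups without overlap), up to 2 called genes per list and direction at that level, and Defa24, Lyz1, Itln1, Mt1, Mt2, Reg3b, Reg3g, Chac1, Mir6236, St6galnac6 and Gsdmc4. Other genes named were picked after their values were seen, and some results are not reported here. The members and lists were chosen with earlier results of these data known. No pair of libraries of a group agreed within sampling noise (chi-square per gene of 15.5 or more). Nothing in the labels says how the animals were housed or handled in groups, so p-values measure the spread between these libraries. Their number and depth limit precision, and reads were counted without molecular identifiers. Figures were drawn with matplotlib 3.10.9.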

Additional observations from a re-analysis of the deposited data

How the results depend on the processing

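With library totals the counts of genes called were 9338 against SPF, 10340 against the antibiotic group and 6310 against SPF on zinc water, where TMM factors gave 3169, 2904 and 764. Of the Milli-Q calls 415 of the 1654 genes higher and all 1515 lower kept their sign. Among the named genes the log2 fold change reversed with library totals for Atp5f1d (-0.014), Gstm1 (-0.048), Edem2 (-0.012), Bmp7 (-0.032), Etfb (-0.048), Atp6v1d (-0.060), Sct (-0.066), Copz1 (-0.10), Mrps15 (-0.12), Mrps26 (-0.13), Ndufs7 (-0.18), Psmd4 (-0.20), Ascl2 (-0.20), Bag3 (-0.23), Psmb10 (-0.25), Rela (-0.27), Rac1 (-0.34), Gfi1 (-0.34), Mmp7 (-0.20) and Ddit3 (-0.32), and 32 others kept their direction but no longer passed. DESeq2 called 1230 genes on zinc water. For the difference of the germ-free effect between waters DESeq2 called 37, no filter on low counts 429 and the replicate block 1, against 0, and the cause was not tested. Leaving out 1 library gave 1656 to 3244 genes against SPF, 1564 to 2766 against the antibiotic group, 51 to 1573 on zinc water and 0 to 767 for the difference between waters. Of the named genes, 39 lost their call without germ-free replicate 2, 26 without germ-free replicate 3 and 21 without SPF replicate 2. In addition 1 gene, B3gnt6, lost its call and changed sign without SPF replicate 2. B3gnt6 ranged from -3.05 to 0.57, the latter without SPF replicate 2. Chosen after seeing the data, leaving out both replicates 2 gave 1271 genes, and the correction for GC content and length without SPF replicate 2 gave 1941. Libraries with the same replicate number did not deviate together (correlations of 0.077, 0.055 and 0.023 across genes), so the numbers were not taken as pairs, and the fit with the replicate block called 3035 genes against SPF. DESeq2-type size factors, DESeq2, limma-voom, other filters, TMM factors without Defa genes and the 6 libraries alone kept the main count within 1.5 times. With 3 libraries a group, single libraries set many calls.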
